A study of Mus musculus with 15 samples.

Results

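Intron retention is the splicing outcome in which an intron stays in an otherwise spliced, polyadenylated RNA. It was described here across 2192 retained-intron events of mouse skeletal muscle. They were taken from a table of 39123 splicing events as the events typed as retained introns that had a value in all 15 libraries. The table lists 2677 retained introns, of which 485 lacked a value in at least 1 library. The 2192 events make up 7.01% of the 31267 events of all types with complete values. By coordinates they are 2135 distinct introns in 1449 genes, and 458 genes contributed 2 or more events. Each value is a percent spliced in (PSI), a fraction from 0 to 1, and for an intron it is read as the share of transcripts that keep the intron. That reading follows the convention of MISO, the program named with the table, and was not checked event by event, which matters most for very short gaps and introns near 1. The number of reads behind each fraction is unknown.

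The spliceosome recognises an intron by its 5′ splice site, branch point and 3′ splice site, and an intron that escapes recognition remains in the RNA. Transcripts with such introns are often held in the nucleus or degraded after a premature stop codon, and many splicing-factor genes limit their own output in this way. In myotonic dystrophy type 1, RNA with an expanded CUG repeat binds muscleblind-like (MBNL) proteins, which regulate alternative splicing in muscle.

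The mice model that disease, and every animal was homozygous for the TREDT960I transgene, whose RNA carries the repeat. Animals with MDAFrtTA, the transgene for the doxycycline-responsive activator, were given doxycycline from postnatal day 1 (induced) or left without it (no dox). Dox controls received doxycycline but carried TREDT960I alone. Muscle was taken at 6, 12 and 20 weeks of age, with 2 induced, 2 no-dox and 1 dox-control libraries at each age. No-dox and dox-control libraries together formed the 9 controls for 6 induced libraries. Induced libraries came from gastrocnemius in 4 cases and quadriceps in 2, and controls from gastrocnemius in 6 and quadriceps in 3. All but 1 library came from females, the male being week 6 no dox replicate 2. Bulk muscle RNA was poly-A selected, so PSI averages over all cells of the tissue, and a shift in cell makeup and a shift in splicing within cells cannot be told apart.

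The genome sequence of the introns was not used here, and only splice sites lying within RefSeq promoter windows of GRCm38.p6 (the mm10 assembly) could be read. These windows held the 5′ splice site of 22 distinct introns and the 3′ splice site of 9, all near a gene start and so not a sample of all introns. All 22 began with GT and all 9 ended with AG. The following 5′ splice sites show 6 exon and 9 intron bases, with the first 2 intron bases in capitals, and were chosen because they span the range of retention from spliced to kept.
U2af1l4, 132 nt intron: ggacaaGTgagaatg
Poln, 946 nt intron: cctgagGTaagggtc
Gss, 808 nt intron: gacatgGTatgtagc
Gss, 898 nt intron: agcaggGTgggtctg
Zfp169, 2037 nt intron: tccccgGTatccttt
Rnaseh2a, 92 nt intron: cgattgGTcagcatc
The U2af1l4 site lies at chr7:30563394-30563408 on the plus strand. The other sites are on the minus strand: Poln at chr5:34169381-34169395, Gss at chr2:155567684-155567698 and chr2:155567774-155567788, Zfp169 at chr13:48491347-48491361 and Rnaseh2a at chr8:84966077-84966091. Mean PSI over 15 libraries was 0.0273 ± 0.0139 (SD) for the U2af1l4 intron and 0.0453 ± 0.0181 for the Poln intron. It was 0.865 ± 0.0699 for the Zfp169 intron and 0.960 ± 0.0181 for the Rnaseh2a intron. The pair of Gss introns ends at the same 3′ splice site. The 808 nt form had a mean PSI of 0.177 ± 0.0928, and the 898 nt form, which starts farther upstream, had 0.673 ± 0.109. Of the 22 sites, 15 had G at intron position 5, with mean PSI from 0.0273 to 0.960 and a median of 0.539. The other 7 ran from 0.202 to 0.865 with a median of 0.411, so the ranges overlapped.

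A pair of 3′ splice sites, shown with 20 intron and 6 exon bases and the last 2 intron bases in capitals, likewise spans spliced and kept introns.
Tomm40, 98 nt intron: tctgacctttcccctcgcAGatacca
Kif3c, 275 nt intron: gcctaattctacctctccAGactgtg
The Tomm40 site is at chr7:19715254-19715279 on the minus strand and the Kif3c site at chr12:3365752-3365777 on the plus strand. Tomm40 encodes the channel of the mitochondrial outer-membrane import complex, and its intron had a mean PSI of 0.0700 ± 0.0468. The intron of Kif3c, a kinesin motor gene, had 0.909 ± 0.0511.

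Mature microRNAs on the same strand lay inside 7 of the introns, 13 mature sequences in all with 13 different seeds. For 4 of them the last base of the microRNA was the last base of the intron, so the microRNA carries the 3′ splice site. They are shown with the seed, bases 2 to 8, in capitals, followed by the microRNA of the Ddx5 intron, which ends 1 base before the intron does.
mmu-miR-7115-3p, Arrb2: aCUUGGUCcccugcccccacag
mmu-miR-3572-3p, Cnot3: uACACUUGuccuucuuuccccag
mmu-miR-7035-3p, Rasa4: uCUGAGCCgcugucccugcag
mmu-miR-7079-3p, Rpl13: uGACUUCUguucucuuuccag
mmu-miR-3064-3p, Ddx5: uGCCACACugcaacaccuuaca
Positions on GRCm38.p6 are chr11:70438297-70438318 for miR-7115-3p, chr7:3656010-3656032 for miR-3572-3p, chr5:136105583-136105603 for miR-7035-3p and chr8:123105023-123105043 for miR-7079-3p, all on the plus strand. The Ddx5 microRNA is at chr11:106782695-106782716 on the minus strand. The 5p and 3p microRNAs of Mir3572 together lie within an intron of only 80 nt in Cnot3, a subunit of the CCR4-NOT deadenylase. That intron had a mean PSI of 0.0273 ± 0.0103. Retention was low in the other 3 as well, at 0.0493 ± 0.0347 for Arrb2 (an arrestin), 0.0120 ± 0.00414 for Rasa4 (a Ras GTPase-activating protein) and 0 in every library for Rpl13. The median over the 7 introns was 0.0273. The Ddx5 intron was the highest of the 7 at 0.221 ± 0.0304.

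Most measured introns were removed from most transcripts. The median of the intron means over 15 libraries was 0.0767, with quartiles of 0.0167 and 0.409. Mean PSI was under 0.05 for 945 introns (43.1%), from 0.05 to 0.25 for 548 (25%), over 0.25 to 0.75 for 446 (20.3%) and over 0.75 for 253 (11.5%). An intron was listed at 0 in all 15 libraries in 114 cases, and at 1 in all libraries in 3 cases. Among the 114 were 3 introns of Eif4a2 and 2 each of Eef1a1, Rpl13, Rpl13a and Hsp90ab1, which encode translation factors, ribosomal proteins and a chaperone. The 3 introns at 1 lie in Ank1 (ankyrin 1), Bsg (basigin) and Zmynd8 (a chromatin reader). Skipped exons, the largest class with 9294 events that had a value in all libraries, had a median mean PSI of 0.701. Libraries differed little, with a median PSI of the introns between 0.05 in week 20 induced 1 and 0.09 in week 20 no dox 2. The share of introns at 0 ran from 9.49% in week 20 no dox 2 to 15.2% in week 20 induced 1. Induced libraries spanned medians of 0.05 to 0.08 and controls 0.06 to 0.09, so the arms overlapped.

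Retention was not ordered by length over most of the range. Lengths ran from 11 to 8856 nt with a median of 260.5 nt, and the Spearman correlation of length with mean PSI was -0.0280 over 2192 introns, which share libraries and in places exons. The correlation was 0.0974 for the upstream exon and 0.189 for the downstream exon. Gaps of 50 nt or less stood apart, with a median mean PSI of 0.890 over 22 events and 17 of them over 0.5. They include 19 nt in Ulk1 (a kinase that starts autophagy) at 0.99 ± 0.00655, 30 nt in Camk2b (a calcium-dependent kinase) at 0.983 ± 0.00884 and 35 nt in Gpd1 (glycerol-3-phosphate dehydrogenase) at 0.999 ± 0.00258. Introns of 51 to 80 nt, the next class, had a median of 0.0547 over 192 events. Introns whose length is a multiple of 3 were over 0.5 in 26.9% of 740 cases, against 18.6% of 1452 other introns, with medians of 0.0970 and 0.0683. Without the gaps of 50 nt or less these shares were 26.1% and 18.1%.

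**Figure D1:**
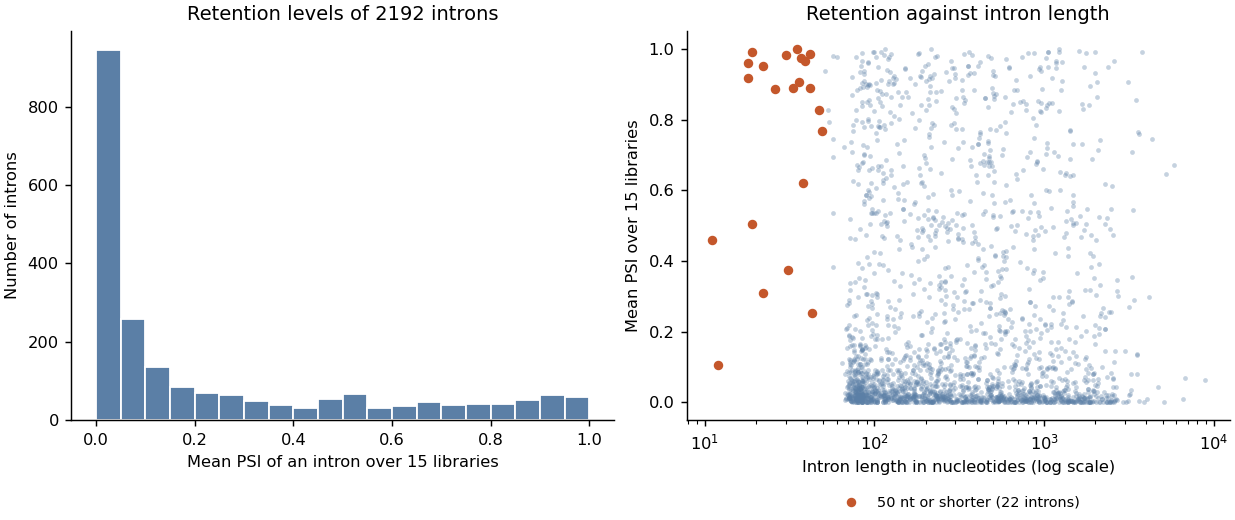
The left panel counts the 2192 introns by mean PSI over 15 libraries in steps of 0.05, and the right panel plots the same mean PSI against intron length on a log scale. The first bar holds the 945 introns under 0.05, and most of the 22 gaps of 50 nt or less (orange) sit high on the plot, with a median of 0.890.

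One of the short gaps is the 26 nt intron of Xbp1, named here after its values were seen. The stress sensor IRE1, not the spliceosome, removes this intron, and the spliced RNA encodes the active transcription factor of the unfolded protein response. It lies at chr11:5524282-5524307 on mm10. The lowest, median and highest PSI were 0.77, 0.9 and 0.94, and the mean was 0.887 ± 0.0445 over 15 libraries. The lowest value came from week 12 no dox 2, a quadriceps library, and the other 14 lay at or above 0.83. The induced minus control difference was 0.025 ± 0.0224 (SE; adjusted p = 0.930, limma).

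Levels also differed by the class of RNA. Introns of long noncoding RNA genes had a median mean PSI of 0.50 over 30 events, against 0.0733 for 2145 events of protein-coding genes. Small nucleolar RNAs (snoRNAs), which guide modification of ribosomal RNA, are made from introns, and 27 of the events hold a snoRNA gene. The 14 in noncoding hosts (Gas5, Snhg1, Snhg16, Snhg17 and Zfas1) had a median of 0.50 and means from 0.245 to 0.601. Gas5 gave more of these events than any other host, and events of Gas5 and of Snhg17 partly overlap, so the median leans on few genes. The 13 in protein-coding hosts had a median of 0.00533. The snoRNA introns of Rpl7a and Rpl13 were at 0 in all libraries, and that of Rpl3 was at 0.01 in all. Rpl13a held a nested pair. Its 171 nt intron was at 0 throughout, while the 261 nt intron around it, with both ends farther out, had a mean of 0.50 ± 0.0791. Means between 0.45 and 0.55 occurred in 121 introns (5.52%), with an SD under 0.05 in 5 of these. Depth behind these values is unknown, and its part in them was not tested.

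Introns of the same gene often differed. All 6 introns of Tardbp, the gene of the RNA-binding protein TDP-43, which is known to limit its own RNA through splicing of its last exon, were mostly kept. Their means ran from 0.847 ± 0.0331 to 0.973 ± 0.0118, and 4 of the 6 overlap each other. The 5 introns of Gimap4, a GTPase gene of lymphocytes, ran from 0.679 to 0.933. Ptbp1, the polypyrimidine tract-binding repressor of splicing, had 3 overlapping introns at 0.649 ± 0.138, 0.796 ± 0.10 and 0.851 ± 0.0810 and another 2 at 0.0193 and 0.0240. U2af1l4, which encodes a relative of the U2AF subunit that reads the 3′ splice site, ran from 0.0227, for a second event on the intron whose 5′ splice site is printed above, to 0.671 for a 79 nt intron. Becn1, a core autophagy gene, had 4 introns at or under 0.0333 and 2 at 0.522 and 0.717. At the low end, the 6 introns of Qars (glutaminyl-tRNA synthetase) stayed between 0.00133 and 0.0533, and the 5 of Eif4a2 (an RNA helicase of translation initiation) between 0 and 0.0600. Where 2 events describe the same intron, 57 in all, their means differed by a median of 0.00667, and the widest gap was 0.195 in Dvl1.

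**Figure D2:**
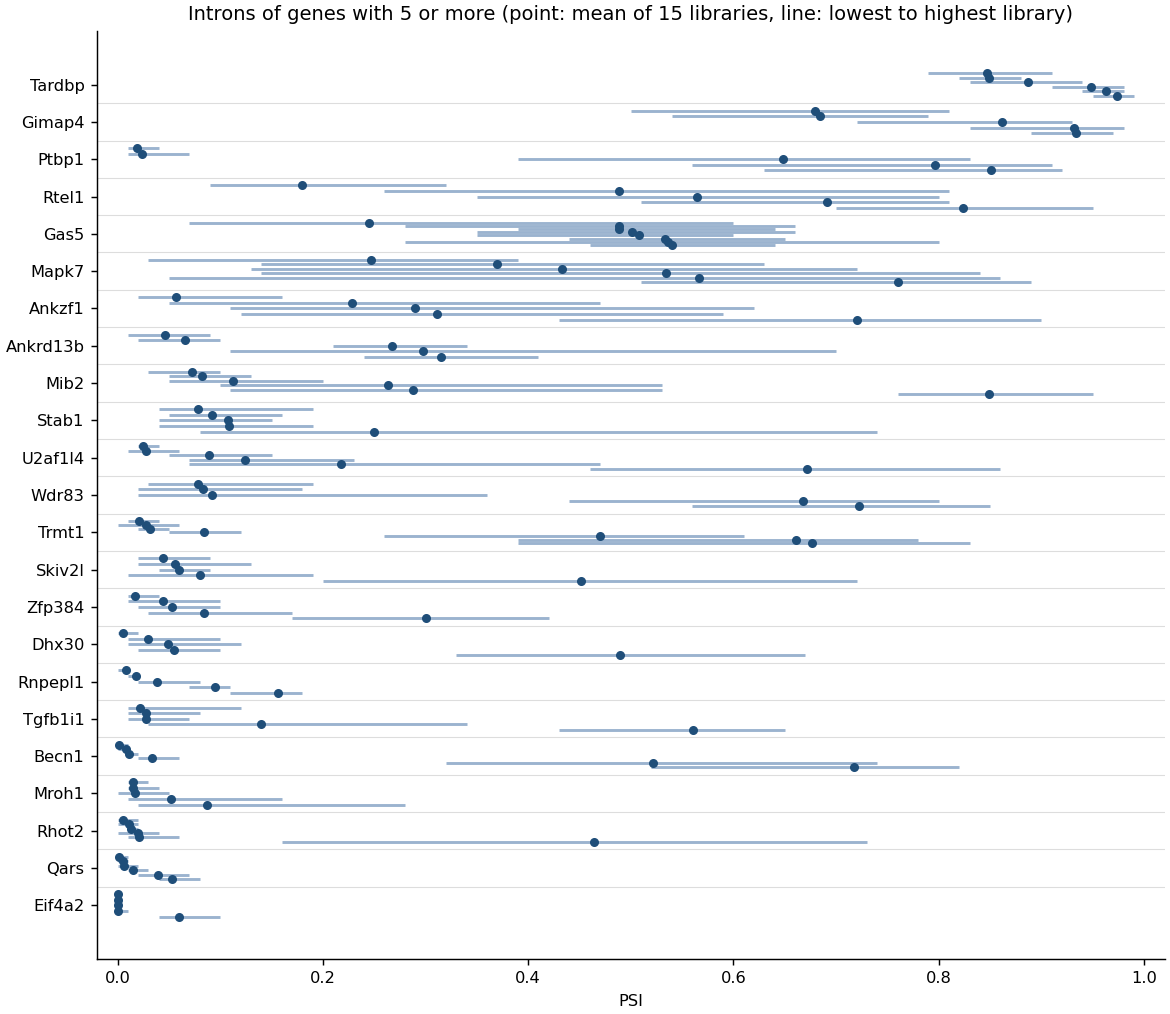
PSI of the 127 distinct introns of the 23 genes with 5 or more, with the mean of 15 libraries as a point and the lowest to highest library as a line. Tardbp introns all lie above 0.84 on average, Qars and Eif4a2 introns all lie at or below 0.0600, and Ptbp1, Becn1 and Trmt1 hold both kept and removed introns.

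Gene groups sat at different levels, and the lists were not chosen independently of these data. Introns of splicing factors and their kinases were measured for 42 of 157 listed genes, with a median mean PSI of 0.147 over 76 introns and 42.1% over 0.25, against 0.0767 and 31.9% for all introns. High members besides Tardbp included Hnrnph1 (300 nt) at 0.918 ± 0.0201 and Prpf40b (131 nt) at 0.810 ± 0.0838, which encode an RNA-binding protein and a U1 snRNP-associated factor. Both genes also had lower introns, among them a 2572 nt intron of Hnrnph1 at 0.113 and a Prpf40b intron at 0.108. Tia1, Hnrnpl and Luc7l3, which encode regulators of 5′ splice-site choice or exon inclusion, had introns at 0.483, 0.471 and 0.543. A 1391 nt intron of Tia1 was lower, at 0.297. At the other end, the ribosome and translation list had a median of 0.00400 over 63 introns of 34 of its 133 genes, with 12.7% over 0.25. Its exceptions include Wars (tryptophanyl-tRNA synthetase) at 0.943 ± 0.0240 and Rps27a (a ubiquitin-ribosomal fusion protein) at 0.783 ± 0.0727 for 1 intron and 0 for another. Energy metabolism had a median of 0.0117 over 20 introns, and proteasome, ubiquitin and autophagy genes 0.0107 over 37. Chromatin and transcription genes lay between, at 0.0473 over 45 introns.

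Few muscle genes had a measured intron. The list of MBNL targets and myotonic dystrophy genes gave 19 introns in 10 of 71 genes, with a median of 0.0160. Dmpk, whose repeat expansion causes the human disease, had 3. Its nested 78 nt and 87 nt introns were kept at 0.977 ± 0.00961 and 0.929 ± 0.0247, and its 171 nt intron was at 0.0373 ± 0.0128. The sarcomere list gave 5 introns in 4 of 76 genes (Pdlim7, Tpm2, Fhl1 and Obsl1) and the calcium and ion-channel list 8 in 6 of 75. Of 20 genes set out by name, 7 had a measured intron, and Clcn1, Mbnl1, Mbnl2, Atp2a1, Bin1, Ldb3, Nfix, Cacna1s, Ryr1, Tnnt3, Ogt, Snrnp70 and Hnrnpdl are not analysed here. Clk1 and Clk4 encode kinases of the SR splicing factors, and Clk1 introns are known to be held back and spliced on demand. The 1349 nt intron of Clk1 was at 0.210 ± 0.0297 in 6 induced and 0.213 ± 0.0367 in 9 control libraries. The Clk4 intron was at 0.0483 ± 0.0248 and 0.0467 ± 0.0240. Srsf5, an SR protein gene, had a 263 nt intron at 0.301 ± 0.0320 over all libraries. Mat2a, which makes S-adenosylmethionine and is known for a regulated last intron, was at 0.178 ± 0.0488 in induced and 0.218 ± 0.0415 in control libraries. No fibre marker gene of 7 had a measured intron, and of 43 markers of other cell types only Cd74, of antigen-presenting cells, had one (0.979). The table holds no expression levels, so the makeup of the muscle samples was not tested.

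**Figure D3:**
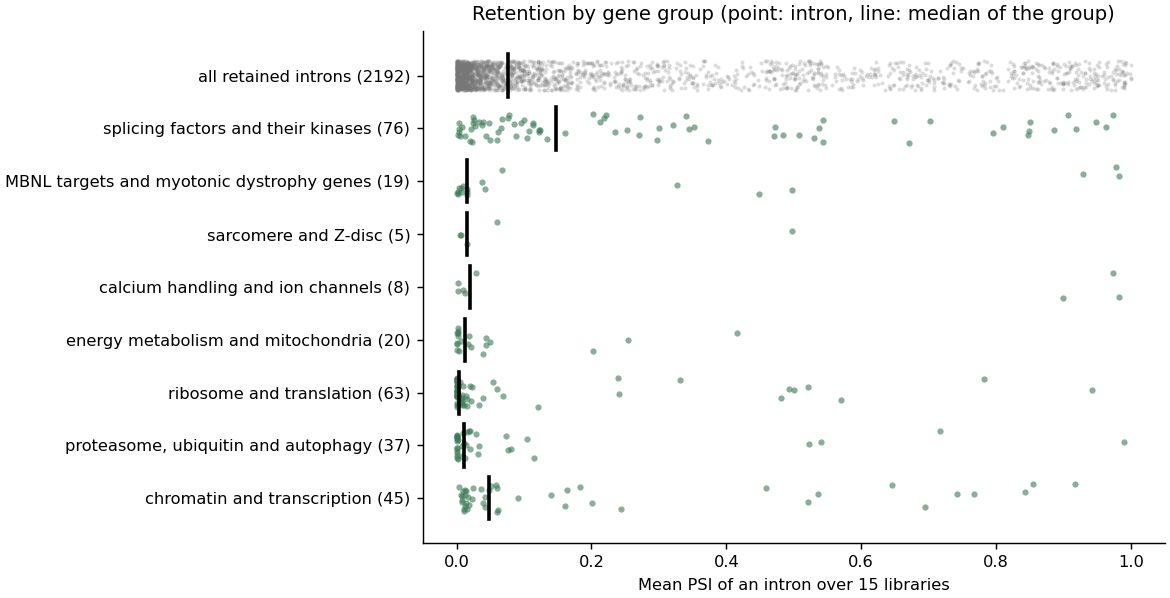
Mean PSI over 15 libraries of each intron (point) in 8 gene lists and in all 2192 introns, with the median of each row as a black line and the number of introns in brackets. The median is 0.147 for splicing factors, 0.00400 for ribosome and translation, and 0.0767 for all introns.

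The first comparison asked whether CUG repeat RNA changes intron retention. No retained intron was called between 6 induced and 9 control libraries, where a call needed an adjusted p under 0.05 and a PSI difference of at least 0.1. Over all 31267 events 0.00640% were called, 2 events. At an unadjusted p under 0.05 there were 120 introns (5.47%), against 6.26% of all events. Of these, 84 were lower in induced muscle (3.83%, against 3.20% of all events) and 36 higher (1.64%, against 3.06%). The lowest adjusted p of an intron was 0.236. The count of lower introns was 52 without week 6 induced 2 and 58 without week 20 induced 1, the library with the most introns at 0. Higher introns numbered 67 without week 12 induced 2. An exact permutation test over 5005 regroupings gave 65 lower and 26 higher.

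Introns are named below by the smallest p among differences of at least 0.1. Among those lower in induced muscle it belonged to Dnase1, the gene of a secreted DNA-cutting enzyme. Its 256 nt intron (chr16:4037698-4037953) was at 0.56 and 0.43, 0.49 and 0.55, and 0.59 and 0.87 in induced libraries of weeks 6, 12 and 20. In controls the lowest, median and highest were 0.69, 0.84 and 0.91. All but the last of the induced values lay below every control. The means were 0.582 ± 0.152 and 0.839 ± 0.0706, a difference of -0.257 (95% interval -0.365 to -0.150; adjusted p = 0.236, limma; exact permutation p = 0.0012, two-sided). Without week 20 induced 2 the difference was -0.320. Among quadriceps libraries only week 20 had both arms, and there week 20 induced 2 lay 0.105 above the mean of 2 no-dox libraries.

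Ankzf1, whose product frees stalled peptides from ribosomes, was the only intron with arms that did not overlap, where 0.0448% of all events lay wholly lower and 0.0800% wholly higher in induced muscle. Its 140 nt intron (chr1:75198125-75198264) was at 0.21 and 0.16, 0.14 and 0.11, and 0.11 and 0.21 in induced libraries of weeks 6, 12 and 20. Controls ran from 0.24 through a median of 0.34 to 0.62. The means were 0.157 ± 0.0455 and 0.379 ± 0.122, a difference of -0.222 ± 0.0453 (SE; adjusted p = 0.281; exact permutation p = 0.0012). A second annotated gene overlaps this position, and strand use in the counting is not given in the sources used here.

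Dab2ip, a Ras GTPase-activating protein gene, had a 982 nt intron with a narrow spread. Induced libraries were at 0.68 and 0.56, 0.55 and 0.61, and 0.55 and 0.64, against 0.66, 0.68 and 0.76 as the lowest, median and highest control. Only week 6 induced 1 reached into the control range, and the means were 0.598 ± 0.0542 and 0.703 ± 0.0377 (difference -0.105; adjusted p = 0.482; exact permutation p = 0.0012). Iffo1, a nuclear lamina-associated intermediate filament gene, had means of 0.143 ± 0.111 and 0.440 ± 0.201 for its 810 nt intron (adjusted p = 0.537), and Aste1 0.438 ± 0.241 and 0.711 ± 0.0679 for 92 nt (adjusted p = 0.533). Tank, an adaptor of NF-kappaB signalling, stood at 0.198 ± 0.162 and 0.417 ± 0.174, and Zfp326, a factor that couples transcription to splicing, at 0.378 ± 0.171 and 0.588 ± 0.160. For Aste1, Tank and Zfp326 the quadriceps libraries alone went the other way, by 0.155, 0.105 and 0.105.

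Gss, the gene of glutathione synthetase, was in this group through the 808 nt intron with the gacatgGTatgtagc site. Induced libraries held 0.16 and 0.11, 0.10 and 0.18, and 0.08 and 0.06. Control gastrocnemius lay between 0.11 and 0.19, and control quadriceps at 0.41, 0.27 and 0.31. So the higher control values were those of quadriceps, and the overall means were 0.115 ± 0.0464 and 0.219 ± 0.0943 (difference -0.104; adjusted p = 0.660). The test of whether the induced difference varied between muscles gave an unadjusted p of 0.000481 for this intron, which did not pass adjustment (adjusted p = 0.752, limma). A second gene overlaps this position too.

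On the higher side, the smallest p among such differences belonged to Celf2, which encodes an RNA-binding regulator of splicing from the CELF family, whose member CELF1 is known to be raised in myotonic dystrophy. Its 262 nt intron (chr2:6546780-6547041) was at 0.21 and 0.81, 0.70 and 0.65, and 0.50 and 0.23 in induced libraries. Controls were at 0.11, 0.19 and 0.39 as lowest, median and highest. The 4 highest of 15 values were all induced, while week 6 induced 1 and week 20 induced 2 lay inside the control range. The means were 0.517 ± 0.251 and 0.223 ± 0.0887, a difference of 0.293 (95% interval 0.112 to 0.475; adjusted p = 0.506; exact permutation p = 0.0058). Without week 6 induced 1, the lowest induced value, the difference was 0.410, with 0.81 as the only induced value left at week 6. A second event on the same intron and a 1366 nt intron with the same 5′ end gave differences of 0.293 and 0.0606, and these 3 events share reads.

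The other introns with higher means were spread over genes of unlike function. They were Adcy6 (adenylyl cyclase 6, 0.580 ± 0.210 induced and 0.368 ± 0.141 control), Nat10 (an RNA acetyltransferase, 0.240 ± 0.177 and 0.107 ± 0.0464) and Sp110 (a nuclear body protein, 0.540 ± 0.131 and 0.342 ± 0.145). Men1 (menin, 0.343 ± 0.143 and 0.210 ± 0.0579) and Mib2 (a ubiquitin ligase of Notch ligands, 0.333 ± 0.111 and 0.217 ± 0.0775) followed. Taf1d and Engase had exact permutation p of 0.222 and 0.0905. Adjusted p for these 7 ran from 0.670 to 0.794. Taf1d, of the RNA polymerase I machinery, was at 0.89 and 0.81 in the week 6 induced libraries and between 0.23 and 0.67 elsewhere. For the week 20 quadriceps libraries the induced minus control difference was -0.13.

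**Figure D4:**
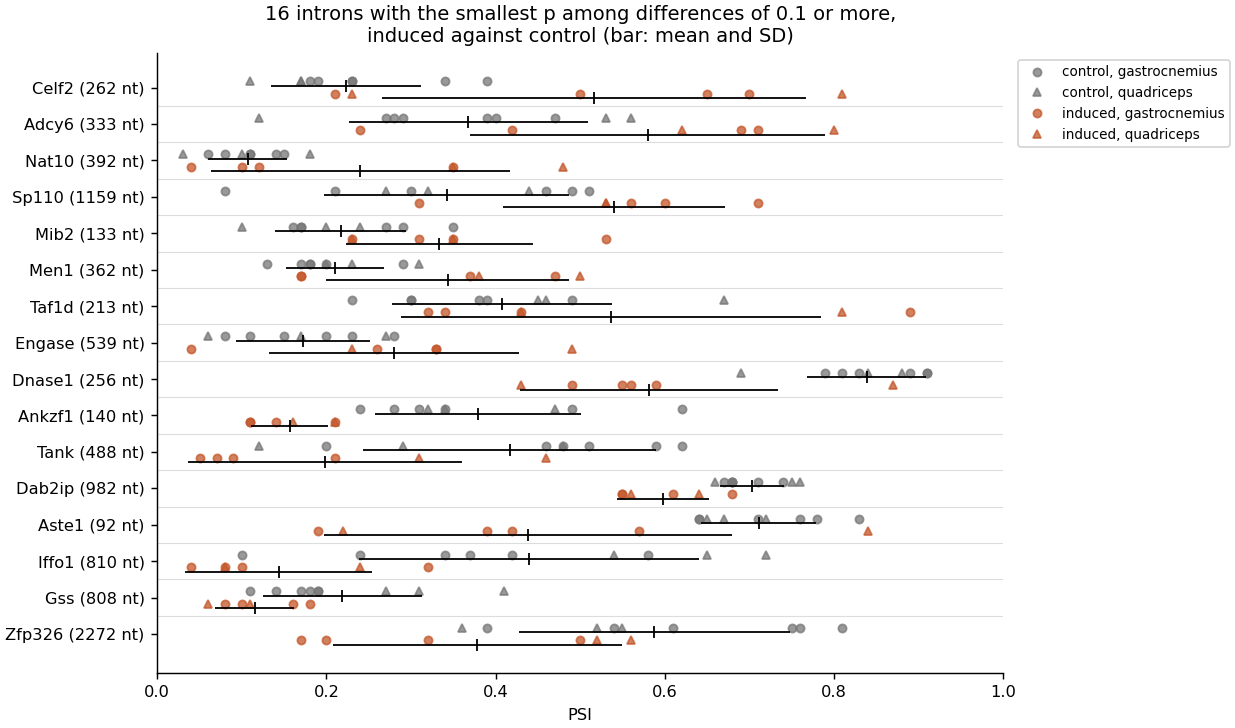
PSI of every library for the 16 introns with the smallest p for induced against control among differences of at least 0.1, 8 higher and 8 lower, with induced libraries in orange, controls in grey, gastrocnemius as circles and quadriceps as triangles. Black bars give the mean and SD of 6 induced and 9 control libraries, and only Ankzf1 shows arms with no overlap.

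By list, 7 of 76 splicing-factor introns had an unadjusted p under 0.05, 4 higher (3 events of Celf2 and 1 of Tardbp) and 3 lower (Pnisr, Thoc1 and Nxf1), beside 120 of 2192 introns. Pnisr encodes a splicing-associated SR-rich protein, and its 1032 nt intron was at 0.652 ± 0.0679 in induced and 0.734 ± 0.0332 in control libraries (difference -0.0828; adjusted p = 0.491). The Tardbp intron of 968 nt differed by 0.0306. Chromatin genes gave 3 of 45, with Taf1d higher and Ccnl2 (0.793 against 0.877) and Hdac6 (0.108 against 0.232) lower. Ribosome and translation gave 2 of 63 (Rps28 and Wars, differences of -0.010 and -0.0211), energy metabolism 1 of 20 (Ppard, difference -0.0183), and the MBNL target, sarcomere, calcium and proteasome lists none. Median differences of the lists lay between -0.00361 and 0, and that of all introns was -0.00111.

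Precision depended on level. The 95% interval of the induced difference lay within 0.1 of 0 on both sides for 1585 introns (72.3%), including 942 of the 945 introns with a mean PSI under 0.05. For the 557 introns between 0.2 and 0.8 it did so for 103 (18.5%), with a median half-width of 0.111. A difference of 0.1 in an intron kept at an intermediate level was therefore mostly not detectable here.

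Comparisons within each age gave no called intron either. Called events of any type made up 0.00320% at week 6, 0% at week 12 and 0.00320% at week 20. Introns with an unadjusted p under 0.05 numbered 83 at week 6, 50 higher and 33 lower, where 4.17% of all events passed, 2.07% higher and 2.09% lower. At week 12 there were 116 introns, 58 in each direction, beside 6.04% of all events, 2.96% higher and 3.07% lower. Week 20 gave 109 introns, 25 higher and 84 lower, beside 5.01% of all events. The higher share there was 1.14% against 2.19% of all events and the lower share 3.83% against 2.81%, and the count of lower introns was 56 without week 20 induced 1 and 140 without week 20 dox control 1. The test of whether the induced difference varied between ages called no intron (0.00320% of all events) and gave 89 introns at an unadjusted p under 0.05 (4.06%, against 4.14%).

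Agrin, encoded by Agrn, clusters acetylcholine receptors at the neuromuscular junction, and a 412 nt intron of its gene had the smallest p among such differences at week 20. The controls of that week were at 0.16, 0.20 and 0.20 and the induced libraries at 0.05 and 0.02. At weeks 6 and 12 controls lay between 0.08 and 0.14 and induced libraries between 0.09 and 0.16. The difference at week 20, adjusted for muscle, was -0.155 ± 0.0216 (SE; adjusted p = 0.226), and the test of variation between ages had an unadjusted p of 0.000272. The lowest adjusted p of any retained intron in that test of variation was 0.715 (limma). Thoc1, of the TREX mRNA export complex, had a 197 nt intron at 0.10 and 0.37 in week 20 induced libraries and at 0.51 to 0.65 in the other 13 (adjusted p = 0.685 at week 20). Ppan, a ribosome biogenesis gene whose intron holds a snoRNA, was at 0.29 and 0.33 in week 6 induced libraries and at 0.04, 0.05 and 0.04 in the controls of that age. In the remaining libraries Ppan lay between 0.02 and 0.19 (week 6 difference 0.262; adjusted p = 0.393). For Rabep2, a Rab5 effector gene, the 241 nt intron was at 0.59 and 0.49 in week 6 induced libraries and 0.04, 0.30 and 0.13 in week 6 controls. At week 20 the order was turned, with 0.21 and 0.20 in induced and 0.52, 0.67 and 0.41 in control libraries (unadjusted p = 0.000960 for variation between ages, adjusted p = 0.976).

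**Figure D5:**
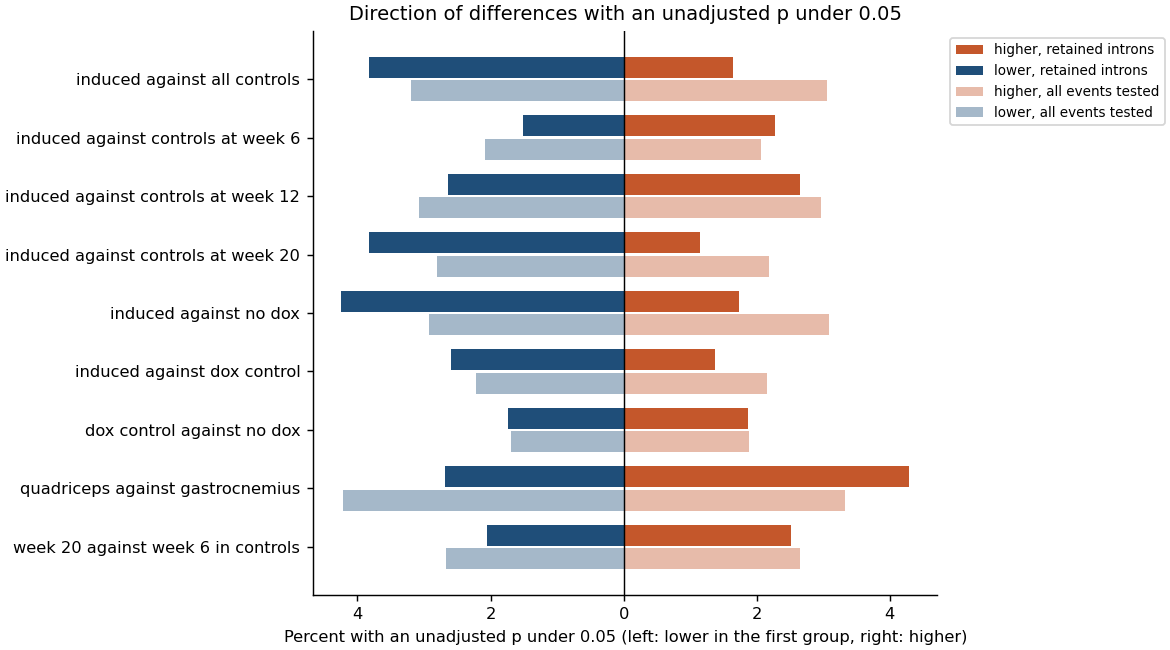
Percent of retained introns (dark bars) and of all events tested (pale bars) with an unadjusted p under 0.05, split into lower (left) and higher (right) in the first group of each comparison. In induced muscle lower introns outnumber higher ones at 3.83% and 1.64%, and quadriceps shows the opposite order at 2.69% and 4.29%.

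The 2 kinds of control were also taken separately. Dox controls differ from no-dox animals both in receiving doxycycline and in lacking MDAFrtTA, so these cannot be told apart between them. No intron was called for induced against no dox, induced against dox control, or dox control against no dox, and 0% of all events were called in each. At an unadjusted p under 0.05 there were 131, 87 and 79 introns, or 5.98%, 3.97% and 3.60%, against 6.02%, 4.38% and 3.58% of all events. Against no dox 38 introns were higher and 93 lower (3.08% and 2.93% of all events), against dox control 30 and 57 (2.16% and 2.22%). Between the controls 41 were higher and 38 lower in dox controls (1.89% and 1.69%). These comparisons share libraries. For Dnase1 the no-dox mean was 0.827 over 6 libraries and the dox-control mean 0.863 over 3, and for Ankzf1 the means were 0.368 and 0.40, so both kinds of control lay above the induced means of 0.582 and 0.157. For Iffo1 they were 0.477 and 0.367.

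Quadriceps and gastrocnemius were compared with arm and age in the fit. No intron was called, and 0.00320% of all events were. At an unadjusted p under 0.05 there were 153 introns (6.98%, against 7.54% of all events), 94 higher in quadriceps (4.29%, against 3.32%) and 59 lower (2.69%, against 4.21%). The share of introns at 0 had a median of 11.8% in 5 quadriceps and 12.6% in 10 gastrocnemius libraries, with overlapping ranges. Prpf40b, whose product is associated with the U1 snRNP, had the smallest p among introns higher by at least 0.1. Its 144 nt intron was at 0.26, 0.32 and 0.45 as the lowest, median and highest of 5 quadriceps libraries, and gastrocnemius ran from 0.09 to 0.36. The difference was 0.201 ± 0.0421 (SE; adjusted p = 0.512). Hypk, a ribosome-associated chaperone gene, had the next smallest p among these, with a 290 nt intron at 0.23, 0.37 and 0.66 as the lowest, median and highest in quadriceps and from 0.01 to 0.54 in gastrocnemius. The means were 0.418 ± 0.190 and 0.188 ± 0.210, so the muscles overlapped (difference 0.34, 95% interval 0.162 to 0.518; adjusted p = 0.537). Its fitted week 20 minus week 6 difference in controls was -0.387 (adjusted p = 0.768). For Zfp446 quadriceps ran from 0.36 to 0.74 and gastrocnemius from 0.24 to 0.43 (difference 0.232; adjusted p = 0.559). Serpinh1, a collagen chaperone gene, had means of 0.822 ± 0.0432 and 0.757 ± 0.106, and Prkcd, a protein kinase C gene, 0.264 ± 0.191 and 0.115 ± 0.0584.

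On the lower side stood a snoRNA-bearing intron of Gas5, a growth-arrest noncoding RNA, with 0.430 ± 0.0778 in quadriceps and 0.547 ± 0.0435 in gastrocnemius (difference -0.149; adjusted p = 0.559). Ppox, of heme synthesis, had 0.218 ± 0.0760 and 0.36 ± 0.116, and Rc3h2, an RNA-binding ubiquitin ligase gene, 0.834 ± 0.0979 and 0.918 ± 0.0239, where the single value of 0.66 in week 12 no dox 2 was the lowest. Only 1 intron had muscles that did not overlap, that of the snoRNA host Snhg8, where 0.0384% of all events lay wholly higher and 0.0991% wholly lower in quadriceps. It was at 0.07, 0.07, 0.06, 0.40 and 0.08 in quadriceps and at 0 to 0.04 in gastrocnemius, with the 0.40 in week 20 no dox 2 (difference 0.0907; adjusted p = 0.761). The test of whether the induced difference varied between muscles called no intron (0% of all events) and gave 104 at an unadjusted p under 0.05 (4.74%, against 4.95%). For 46 of these the induced difference was more positive in quadriceps and for 58 in gastrocnemius, beside 2.60% and 2.35% of all events.

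Age was compared in controls between weeks 20 and 6. All 3 week 6 controls came from gastrocnemius and 2 of 3 week 20 controls from quadriceps, so the fitted age difference leans on the muscle term. No intron was called (0% of all events), and 100 had an unadjusted p under 0.05 (4.56%, against 5.32%), 55 higher and 45 lower at week 20, beside 2.65% and 2.67% of all events. Groups of 3 did not overlap in 83 introns higher at week 20 (3.79%, against 4.13% of all events) and 51 lower (2.33%, against 4.37%). Man1c1, a Golgi mannosidase gene, had a 430 nt intron at 0.36, 0.18 and 0.37 in week 6 controls and 0.68, 0.62 and 0.72 in week 20 controls. All week 20 controls lay above all week 6 controls, while week 20 induced libraries were at 0.17 and 0.40 (age difference 0.321 ± 0.0844, SE; adjusted p = 0.736). Mroh1 was at 0.07, 0.05 and 0.04 at week 6 and 0.14, 0.16 and 0.28 at week 20, and Dmxl2, a regulator of the vesicle proton pump, at 0.08, 0.09 and 0.05 and then 0.17, 0.14 and 0.23. Thbs3 (thrombospondin 3) had control means of 0.0700 and 0.140.

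Retention ran lower at week 20 for Tank and Blzf1. The 488 nt Tank intron was at 0.59, 0.62 and 0.46 in week 6 controls, 0.51, 0.48 and 0.48 at week 12 and 0.12, 0.29 and 0.20 at week 20 (week 20 minus week 6 difference -0.441 ± 0.0972, SE; adjusted p = 0.658). Week 6 and week 12 induced libraries, at 0.09, 0.46, 0.21 and 0.07, lay at or below the lowest control of those ages, and the week 20 induced libraries, at 0.05 and 0.31, spanned the week 20 controls. Blzf1, a golgin gene whose 87 nt intron has the 5′ splice site ctattgGTacttttt (chr1:164307433-164307447, minus strand), was at 0.74, 0.67 and 0.69 at week 6 and 0.23, 0.41 and 0.46 at week 20 (difference -0.378; adjusted p = 0.736). Map4k5, a kinase of stress signalling, was at 0.57, 0.46 and 0.42 in week 6 controls, 0.01, 0.02 and 0.04 at week 12 and 0.27, 0.36 and 0.05 at week 20, so its values did not move one way with age.

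Some introns varied widely between libraries. The largest SDs over 15 libraries were those of Cnep1r1 (0.259, from 0.01 to 0.78), Slc35b4 (0.237, from 0.02 to 0.71), Telo2 (0.235, from 0.10 to 0.71) and Miip (0.230, from 0.11 to 0.79). For Cnep1r1, which encodes a regulator of the lipin phosphatase, arm means were 0.263 ± 0.229 and 0.391 ± 0.278. The median SD of an intron was 0.0277, and it was 0.111 among introns with means over 0.25 to 0.75.

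Several introns were high in a single library. In Tle2, a Groucho-type corepressor gene, the 279 nt intron was at 0.68 in week 6 induced 2, a quadriceps library, and from 0.02 to 0.10 in the other 14. In Podn, which encodes a matrix proteoglycan, the 665 nt intron was at 0.53 in week 12 induced 1 and from 0.03 to 0.11 elsewhere. Both are named after their values were seen. They were called between induced and control libraries only when the other induced library of that week was left out. The high library then stands alone for its week and arm.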

How the data were processed

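RNA of 15 mouse muscle libraries was poly-A selected and read from both ends over 100 bases, per the labels' protocols. As deposited, the values are 1 fraction (PSI, 0 to 1, to 2 decimals) for each splicing event and library, and the table's name calls them MISO output. The authors' alignment used TopHat on mm10, per the submitters' processing notes. Of versions, annotation, strand use and read minimums, each is not given in the sources used here. Depth is unknown, and no interval for counting error is given. MISO estimates of events with few reads tend towards the middle of the scale. Columns were matched to libraries by the identifier in each title. The numbers of the week 6 induced columns run opposite to the titles, which were followed. The table holds 0 columns of other samples.

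Intron coordinates are the gap between the exon blocks of the event name, on mm10 and counted from 1. The symbol column was checked against RefSeq positions (GRCm38.p6). It named a gene at the position for 1876 introns and by an older name for 160. A further 141 took the name of the only RefSeq gene there, 12 kept an unmatched symbol and 3 have no name.

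PSI was tested with limma 3.58.1 (R 4.3.3) with variance trend and robust moderation on all 31267 complete events, with Benjamini-Hochberg adjustment over them and two-sided p. The fit held a mean per age and arm plus muscle, and differences by arm were averaged over 3 ages. The comparisons of muscles, and of ages in controls, came from the same fit. A term for arm by muscle was added to test variation between muscles. The comparisons of conditions used a fit of condition, age and muscle. The script was tested on simulated data. Exact permutation p-values regroup the 15 libraries in 5005 ways, so the smallest possible is 0.0002. They rest on the plain difference of arm means and, unlike the fit, do not hold age or muscle fixed. Nothing in the labels gives animal numbers, and p-values cover only the spread among libraries, which may be partly technical. Introns named in a comparison are those with the smallest p among differences of at least 0.1, plus the 3 smallest p of each gene list, 20 genes set by name, the 8 highest means and the 6 largest SDs, and others are marked as chosen later. The introns and lists were chosen with earlier results of these data known. Alternatives were a logit scale, no muscle term, a filter on mean PSI of 0.05 to 0.95, no trend, each muscle alone, a replicate block and leaving out each library. Some introns are not reported here.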

Additional observations from a re-analysis of the deposited data

Results flagged for a closer look

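Dixon's criterion for a sample far from the others was applied to 50 groups of values of the named introns and picked out 3 samples, where chance picks about 1 in 20 groups. In the Dnase1 intron, week 20 induced 2 stood at 0.87 above the other 5 induced libraries, which ran from 0.43 to 0.59. In the 30 nt gap of Camk2b, week 20 no dox 2 stood at 0.96 below the other 8 controls, which were at 0.98 or 0.99. In the Ddx5 intron, week 6 induced 1 stood at 0.27 above the other 5 induced libraries, at 0.16 to 0.20. The cause of these values was not tested.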

How the results depend on the processing

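No retained intron was called in any of 11 comparisons without a trend or with a filter on mean PSI. Without a muscle term none was called either, in the comparisons that do not themselves test muscle. The exact permutation test, the single muscles and the replicate block also called none, each where it applied. The permutation test could call an intron only if many of the 31267 events reached its smallest p of 0.0002, so its 0 calls settle little. Its lowest adjusted p of an intron was 0.375. On the logit scale 1 intron was called for variation between ages (Ccdc174), beside 7 of 31267 events, and 0 in the other comparisons. Leaving out 1 library gave from 0 to 3 calls for induced against controls, 0 to 3 at week 6, 0 to 11 at week 12, 0 to 1 at week 20, 0 to 4 for variation between ages and 0 to 2 for variation between muscles. These ranges include fits without 1 induced library, which leave 1 induced library in that week. The upper ends came only from such fits, except for variation between muscles. Leaving out a control library called no intron for induced against controls over all weeks, at week 6 or at week 20. Without week 12 no dox 1 there was 1 call at week 12 and 1 for variation between ages. For variation between muscles there were 2 calls without week 20 dox control 1 and 1 without week 20 no dox 2. Without week 6 induced 1 the difference over all weeks was 0.410 and 0.412 for 2 events of Celf2 and 0.217 for Tle2. With 1 library left in an arm, it is assumed to vary like the other groups. Among quadriceps libraries only week 20 had both arms. The quadriceps fit thus compared week 20 induced 2 with 2 no-dox libraries, and its 0 calls settle little. The direction was turned there for Taf1d (-0.13), Dnase1 (0.105), Tank (0.105), Aste1 (0.155), Zfp326 (0.105), Map1lc3b (-0.03) and Atg4b (-0.015). Deviations of same-numbered libraries of a week had correlations of 0.00963, -0.0118 and 0.0154 over all events. Over retained introns these were 0.00591, -0.0586 and 0.0321. With so few libraries this shows no pairing by number but cannot exclude one. The replicate block gave 0 calls, as did the same 12 libraries without it. The median of intron means changed by less than 0.01 in each leave-one-out, a setting added after seeing the data. Depth per event is unknown, which limits every value of an intron with few reads.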
